A study of Mus musculus with 4 samples.

Results

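Tau, the doublecortin proteins and the stathmins are proteins of the neuronal microtubule cytoskeleton. Their genes were selected by symbol, not by a measured change, and are *Mapt*, which codes for tau, *Dcx*, *Dclk1* and *Dclk2* of the doublecortin family, and *Stmn1*, *Stmn2*, *Stmn3* and *Stmn4* of the stathmin family. These are 8 of the 23038 genes in the expression tables, and 38 of the 38240 alternative splicing events in the splicing tables belong to them. Messenger RNA was sequenced from the embryonic mouse cortex at stage E14.5, in 2 control and 2 *Qk* cKO littermates, with poly-A selection and no strand information. All 4 embryos carried *Qk* alleles with loxP sites around exon 2. The controls had these alleles alone (*Qk fl/fl*, wild type in the sample labels), and the *Qk* cKO embryos (Nestin-cre:*Qk fl/fl*, Qk knock-out in the labels) also carried a *Nestin*-Cre transgene, which acts in neural progenitors and the cells they give rise to, so that cells of other origin keep *Qk*. *Qk* codes for the RNA-binding Quaking proteins, which regulate pre-mRNA splicing and mRNA stability.

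Tau binds along microtubules and stabilizes them, mainly in axons. Doublecortin and its relatives bind between the protofilaments of the microtubule wall, and mutation of *DCX* in humans disturbs the migration of cortical neurons. Stathmins act the other way: they bind free tubulin and promote the disassembly of microtubules until kinases phosphorylate them. Tau is known for its alternative exons, among them exons 2 and 3, which add acidic inserts near the N-terminus and are mostly skipped in the embryonic brain.

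The libraries held between 37942046 and 42994832 tags assigned to genes. The junction of *Qk* exons 2 and 3 was read by 635 and 565 tags in the controls and by 63 and 68 in *Qk* cKO. Per 100 tags on the junction of exons 3 and 4 these were 110.6 and 128.6 against 7.02 and 8.19. The targeted exon thus followed the labels. The junction of exons 3 and 4 was itself read more in *Qk* cKO, by 898 and 830 tags against 574 and 439 in control. *Qk* RNA as a whole was called higher in *Qk* cKO (log2 fold change 0.65, edgeR FDR 2.5e-05). Replicate 1 of both groups expressed *Xist* (57.1 RPKM in control and 64.5 in *Qk* cKO; RPKM is reads per kilobase of exon, scaled to the depth of the library) and no Y-linked gene of the list, whereas replicate 2 of both groups expressed Y-linked genes, so each group held 1 embryo of each pattern. Pan-neuronal and cortical excitatory neuron marker lists were expressed in every library, and none of their 10 and 9 genes was called as changed. Markers of hypothalamus and diencephalon, a tissue next to the cortex, were low in all libraries but higher in the controls, with summed levels of 4.82 and 10.4 RPKM in control and 2.48 and 1.83 RPKM in *Qk* cKO, and 6 of 8 were called lower. Of 10 radial glia markers 3 were called lower, namely *Ednrb*, *Fabp7* and *Slc1a3*. Summed levels for the list were 1649 and 1529 RPKM in control and 1340 and 1277 RPKM in *Qk* cKO. *Fabp7* was the largest part of these sums, with 989 and 901 RPKM in control and 703 and 667 RPKM in *Qk* cKO. Of the 10 markers 3 had positive log2 fold changes, *Hes1* (0.082), *Pax6* (0.077) and *Nes* (0.040). The diencephalic list, *Ednrb* and *Fabp7* were chosen with lists of changed genes from these samples known, so their direction is not independent evidence.

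The values below address 2 questions, whether loss of *Qk* went with a different amount of these transcripts and whether it went with a different form of them. To show the forms, the sequences on which the splicing results turn are given first, 5′ to 3′ in the spliced transcripts of GENCODE release M21 on GRCm38 (mm10). Capitals mark the alternative part and lower case the 12 bases on each side of it. They are the tau exon 8, the 15-base extension of a *Dcx* exon, the 48-base exon of *Dclk2*, and the 81-base exon and the coding start of the 53-base exon of *Stmn4*.
Mapt exon 8: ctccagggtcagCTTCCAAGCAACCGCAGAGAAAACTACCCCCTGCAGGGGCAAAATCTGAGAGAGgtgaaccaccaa
Dcx 15-base extension: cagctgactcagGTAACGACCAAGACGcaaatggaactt
Dclk2 48-base exon: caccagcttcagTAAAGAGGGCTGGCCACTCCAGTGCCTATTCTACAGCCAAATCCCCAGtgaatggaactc
Stmn4 81-base exon: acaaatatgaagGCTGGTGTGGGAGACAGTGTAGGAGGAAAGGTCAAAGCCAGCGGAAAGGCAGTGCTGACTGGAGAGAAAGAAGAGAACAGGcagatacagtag
Stmn4 53-base exon to its stop codon: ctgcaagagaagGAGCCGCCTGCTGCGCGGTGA
*Mapt* exon 8 lies at chr11:104307881-104307934 on the plus strand, and the *Dcx* extension lies at chrX:143875755-143875769 on the minus strand. The *Dclk2* exon lies at chr3:86830824-86830871 on the minus strand, and the *Stmn4* exons at chr14:66356269-66356349 and chr14:66358679-66358731 on the plus strand. The parts of 54, 15, 48 and 81 bases keep the reading frame. The *Stmn4* exon of 53 bases holds 6 codons and then a stop codon, followed by 32 untranslated bases, so that its inclusion ends the annotated protein differently.

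All 8 genes were strongly expressed, and none was called as changed in *Qk* cKO. The most abundant was *Stmn1*, the stathmin of proliferating and newborn cells, with 1059 and 1042 RPKM in control and 1030 and 961 RPKM in *Qk* cKO, a level above that of 99.9% of the genes in the tables. *Stmn4* followed with 235 and 241 RPKM in control and 239 and 205 RPKM in *Qk* cKO. *Stmn3* had 189 and 214 RPKM in control and 194 and 161 RPKM in *Qk* cKO. Both are stathmins of neurons, anchored to membranes, and in both the library of *Qk* cKO replicate 2 was the lowest while *Qk* cKO replicate 1 lay between the controls. *Mapt* had 157 and 171 RPKM in control and 151 and 156 RPKM in *Qk* cKO. *Stmn2*, the stathmin of growing axons known as SCG10, had 156 and 152 RPKM in control and 156 and 144 RPKM in *Qk* cKO. The *Mapt* groups were separated narrowly, and the *Stmn2* groups overlapped. *Dcx*, the gene of migrating neurons, had 66.4 and 70.8 RPKM in control and 71.2 and 80.4 RPKM in *Qk* cKO. The paralog *Dclk2* had 68.3 and 67.0 RPKM in control and 65.8 and 62.5 RPKM in *Qk* cKO. *Dclk1*, whose longer products join the doublecortin domains to a kinase domain, was the lowest with 31.8 and 33.8 RPKM in control and 35.0 and 34.6 RPKM in *Qk* cKO. Values of *Dcx* and *Dclk1* were higher in both *Qk* cKO libraries than in both controls, and those of *Dclk2* lower.

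**Figure D1:**
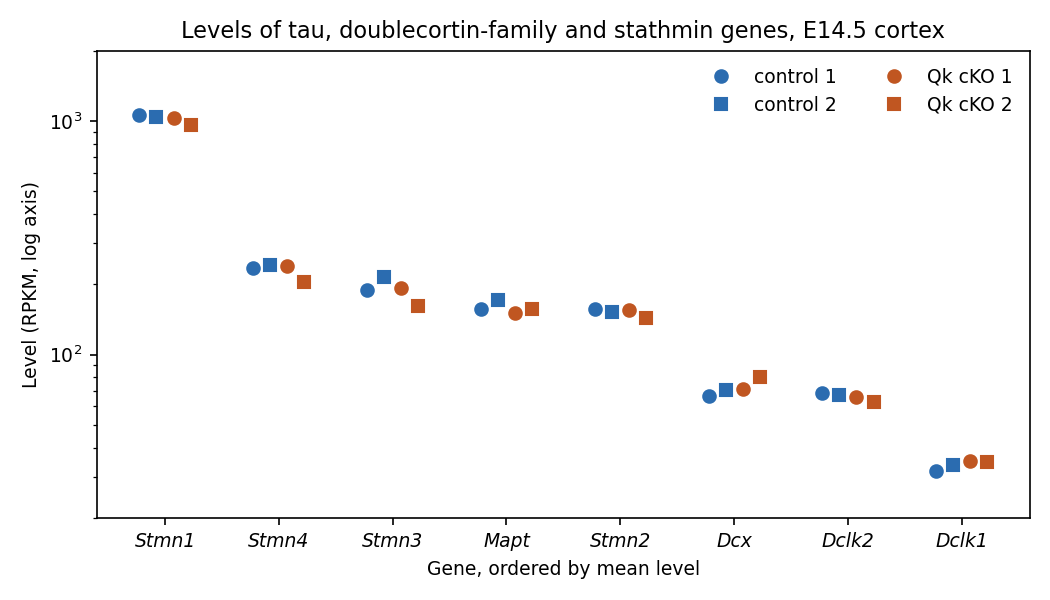
Level of each gene in RPKM (log axis) in each of the 4 libraries, ordered by the mean level, with controls in blue and *Qk* cKO in orange, circles for replicate 1 and squares for replicate 2. The 4 points of a gene lie close together compared with the distance between *Stmn1* at 961 to 1059 RPKM and *Dclk1* at 31.8 to 35.0 RPKM.

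In order of their mean RPKM the genes ran *Stmn1*, *Stmn4*, *Stmn3*, *Mapt*, *Stmn2*, *Dcx*, *Dclk2* and *Dclk1*. At 3 steps of this order all libraries of the higher gene lay above all libraries of the next, with no test made: *Stmn1* was 4.45 times *Stmn4*, *Stmn2* was 2.11 times *Dcx*, and *Dclk2* was 1.95 times *Dclk1*. *Stmn4* and *Stmn3*, *Stmn3* and *Mapt*, *Mapt* and *Stmn2*, and *Dcx* and *Dclk2* overlapped across libraries, although within each library *Stmn4* exceeded *Stmn3* and *Stmn3* exceeded *Mapt*. Thus in RPKM the stathmins and tau lay above the doublecortin family in each library. This order depends on the exon length in RPKM, which was 12460 bases for *Dcx* and 1136 bases for *Stmn3*. In tags not divided by length, *Dcx* exceeded *Stmn4* and *Stmn3*, at 34285 against 11983 and 8874 in control replicate 1.

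Between genotypes, 0 of the 8 genes was called by the quasi-likelihood test of edgeR at p below 0.01 and FDR below 0.1, where 0.584% of the 18834 genes tested were called, 0.207% as higher and 0.377% as lower in *Qk* cKO. At an unadjusted p below 0.05 there was 1 of 8, against 8.76% of all genes. By the Wald test of DESeq2 0 of 8 was called as well. RPKM did not overlap between the groups for 5 of 8, against 36.9% of all genes. The median log2 fold change of *Qk* cKO over control was -0.064 for the 8 genes and -0.0025 for all genes, with 6 negative and 2 positive. With 2 embryos against 2 an exact permutation test of a single gene cannot go below p = 0.333, so the test rests on the spread shared across genes.

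*Stmn3* had the largest change in size, with a log2 fold change of -0.17 (SE 0.077, 95% interval -0.33 to -0.0088, edgeR FDR 0.535). The ratio of *Qk* cKO to control was 1.026 between the libraries of replicate 1 and 0.751 between those of replicate 2. This division was made after the data were seen, and libraries of the same number are not pairs. Regardless of the matching, *Qk* cKO replicate 2 lay below both controls and *Qk* cKO replicate 1 between them. Without *Qk* cKO replicate 1 the log2 fold change of *Stmn3* was -0.32 with an FDR of 0.0306, and the gene was then called, whereas without *Qk* cKO replicate 2 it was -0.035 (FDR 0.973). The summed level of the 10 pan-neuronal markers moved in the same order, with 612 and 683 RPKM in control and 616 and 576 RPKM in *Qk* cKO. That of the 9 cortical excitatory neuron markers did not, with 352 and 310 RPKM in control and 316 and 357 RPKM in *Qk* cKO. *Gap43* was the largest part of the pan-neuronal sums, at 227 and 257 RPKM in control and 228 and 209 RPKM in *Qk* cKO. *Snap25* of that list did not follow the order, at 32.1 and 34.1 RPKM against 32.3 and 34.4 RPKM. *Neurod6* was the largest part of the excitatory sums, at 166 and 138 RPKM in control and 143 and 167 RPKM in *Qk* cKO. The part of either list in the result was not tested. In bulk tissue, fewer cells of a type and less RNA per cell cannot be told apart. The genes most like *Stmn3* over the 4 libraries were *Zic4*, *Hcfc1r1* and *Wdr6*, whose centred log2 levels differed from its own by root mean squares of 0.028, 0.029 and 0.031, among 6706 genes with a mean log2 CPM of at least 5.

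*Dcx* had the largest positive value, a log2 fold change of 0.16 (SE 0.082, 95% interval -0.015 to 0.33, edgeR FDR 0.633). Its ratio of *Qk* cKO to control was 1.07 between the *Xist*-expressing libraries and 1.14 between the libraries with Y-linked genes. *Dcx* lies on the X chromosome, and in both groups its level was higher in the library with Y-linked genes. *Dclk1* had a log2 fold change of 0.10 (95% interval -0.056 to 0.26), with a ratio of 1.10 in replicate 1 and 1.02 in replicate 2.

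For the other genes the log2 fold changes were -0.086 for *Stmn4*, -0.082 for *Mapt*, -0.065 for *Stmn1*, -0.063 for *Dclk2* and -0.026 for *Stmn2*, with standard errors between 0.069 and 0.080 and edgeR p-values between 0.268 and 0.748. Their 95% intervals bound the size of a change that could have been missed. For *Mapt* the interval ran from 15.8% lower to 5.98% higher, and for *Stmn1* from 14.9% lower to 7.41% higher. *Stmn4* behaved like *Stmn3* across replicate numbers, at a ratio of 1.02 in replicate 1 and 0.851 in replicate 2. For the remaining 6 genes both ratios lay on the same side of 1. For *Mapt*, *Dcx*, *Dclk1*, *Dclk2* and *Stmn1* this follows from groups that did not overlap and adds nothing to it. *Stmn2* had ratios of 0.999 in replicate 1 and 0.946 in replicate 2.

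**Figure D2:**
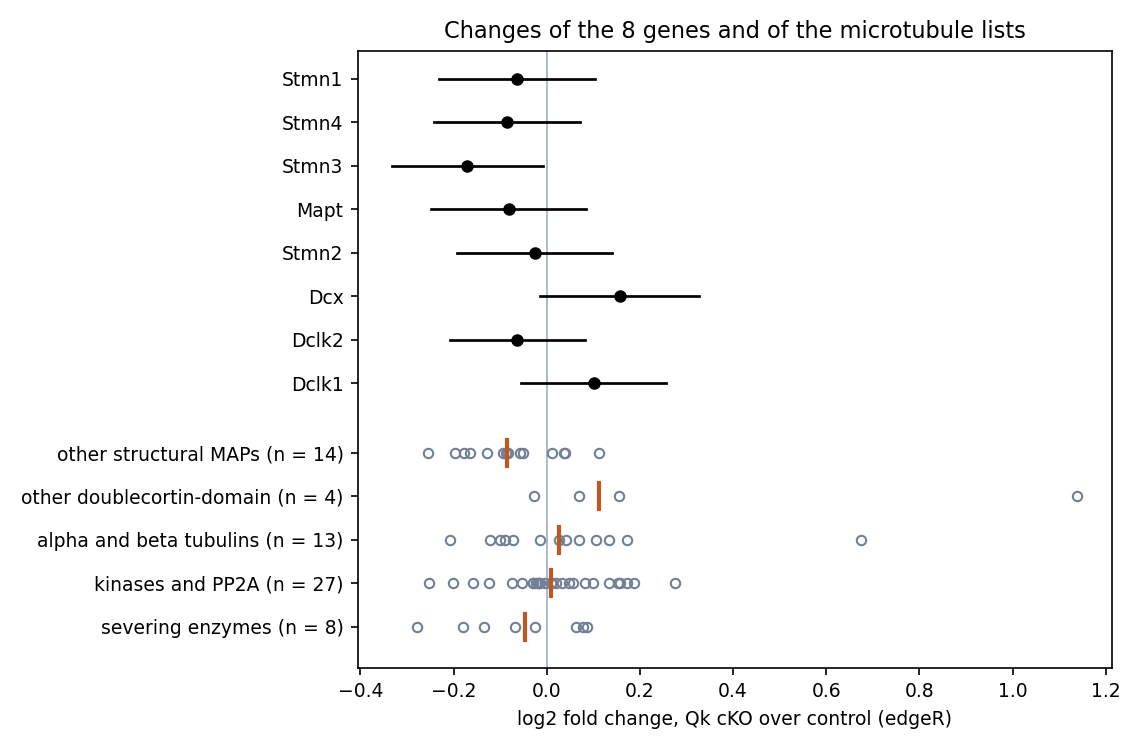
Log2 fold change of *Qk* cKO over control from edgeR. Black points with lines are the 8 genes with 95% intervals, open circles are the genes of 5 lists of microtubule genes, and orange bars are the list medians. The interval of *Stmn3* alone leaves out 0, at -0.33 to -0.0088, and the list medians lie between -0.085 and 0.11.

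No gene of the 5 lists of microtubule partners was called. Of 14 other structural microtubule-associated proteins 0 was called by edgeR and 1 had an unadjusted p below 0.05, with a median log2 fold change of -0.085. That gene was *Map6* (listed as Mtap6), the cold-stable tubule protein of neurons, at 18.5 and 25.3 RPKM in control and 19.7 and 16.6 RPKM in *Qk* cKO (log2 fold change -0.26, FDR 0.396). *Map2* (listed as Mtap2), the dendritic relative of tau, had 110 and 118 RPKM in control and 120 and 124 RPKM in *Qk* cKO (log2 fold change 0.11, FDR 0.774). Of the 13 alpha and beta tubulins, the subunits of the polymer itself, 0 was called and 0 had an unadjusted p below 0.05. *Tubb3*, the neuronal beta tubulin, had 765 and 833 RPKM in control and 779 and 676 RPKM in *Qk* cKO, and was lowest in *Qk* cKO replicate 2 as *Stmn3* and *Stmn4* were.

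Among 27 kinases that act on tau, doublecortin or stathmins together with subunits of the phosphatase PP2A, 0 was called and 4 had an unadjusted p below 0.05, 2 in each direction. *Mapk8*, the JNK1 kinase of doublecortin and stathmins, had a log2 fold change of 0.16 (edgeR FDR 0.319). *Ppp2r2a*, a regulatory subunit of PP2A, had 0.19 (FDR 0.340). *Mark4*, a kinase of the microtubule-binding repeats of tau, had -0.20 (FDR 0.372). Of 8 microtubule severing enzymes 0 was called, and *Katnal2*, a katanin-like subunit, had the smallest p with a log2 fold change of -0.28 (FDR 0.445). Of 7 other genes with doublecortin domains 4 were tested and 0 was called, and 2 of these 4 had mean levels below 1 RPKM.

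The known Quaking element was counted in the longest annotated 3′ untranslated region of each gene on the transcript strand, as ACTAAC or ACTAAT in DNA letters, which do not overlap each other. *Dcx* held 5 matches in 7709 bases, where 324 genes with a region of 0.8 to 1.2 times that length had a median of 3 and 92% of them had a match. *Mapt* held 1 in 3903 bases, *Dclk1* 1 in 5437 bases and *Dclk2* 1 in 5706 bases, against medians of 1, 2 and 2 for genes of like length, of which 70.1%, 80.8% and 81.8% had a match. The 4 stathmins, with shorter regions of 305 to 1281 bases, held 0, where between 10.1% and 33.6% of genes of like length had a match. The matches of *Dcx* are shown with 10 bases on each side, in the order of their positions in the region, because *Dcx* had the most of the 8 genes.
Dcx position 158: cttctgggccACTAATtcacatttac
Dcx position 2873: gggttgaacaACTAACttcgtaagta
Dcx position 3662: tatctttactACTAATaacaatttcc
Dcx position 4019: ctttcctggaACTAATgaatattcac
Dcx position 7164: agatttgctgACTAATatttattggg
Capitals mark the element. A match is a description of letters and not a binding site. The exon sequences printed above and those of the other placed parts, 27 in all with 12 bases on each side and 1 tau event left out, did not contain ACTAA, and intron sequence was not used here.

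The splicing of the 8 genes was measured by inclusion, the share of junction tags that support the longer form, and by its difference Δ*I*, control minus *Qk* cKO. For a cassette exon the tags on its 2 inclusion junctions were averaged before the share was taken, and those of a tandem event were divided by its number of junctions. Coverage was the smallest of several sums of junction tags before averaging: all in control, all in *Qk* cKO, and those of each form over all libraries. It therefore often follows the rarer form and not the depth. Of the 38 events 22 had a coverage of at least 20 junction tags and were tested. These were 14 cassette exons, 2 tandem cassettes, 4 alternative 5′ sites and 2 alternative 3′ sites. *Mapt* had 7 of them, *Dclk2* and *Stmn4* 5 each, *Dclk1* and *Stmn1* 2 each and *Dcx* 1, whereas no event of *Stmn2* or *Stmn3* was listed. Fisher's exact test on tags summed over replicates called 5 of the 22 at p below 0.01 and FDR below 0.1, against 7.5% of the 11500 events tested. The 5 were *Mapt* exon 8, the 81-base and 53-base exons of *Stmn4* and the 48-base and 82-base exons of *Dclk2*. Calls were more frequent at high coverage in all genes, with 14.9% at 200 tags or more and 4.83% between 20 and 50 tags, and 9 of the 22 had 200 or more. Of those 9, 3 were called.

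The changes were small. The largest Δ*I* in size was 0.0616, none of the 22 reached 0.1, and the median size was 0.0047 against 0.0256 for all tested events. Many of the 22 had an inclusion near 0 or 1, such as *Mapt* exon 4 (0.993) and exon 6 (0.00682) in the summed controls. The medians were not matched for inclusion or depth. Fisher's exact test on summed tags leaves out the variation between embryos. When that variation was included, by an edgeR fit that asks whether the isoform ratio depends on the genotype (the interaction test), 0 of 22 was called, where 0.557% of all events were called, and 2 of 22 had an unadjusted p below 0.05, against 7.17%. Inclusion did not overlap between the groups for 8 of 22, against 37.9% of all events. It did not overlap for 4 of the 5 called by Fisher's exact test. Those 5 were selected on the same tags, so this count is not independent evidence, and its share over all called events was not computed.

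**Figure D3:**
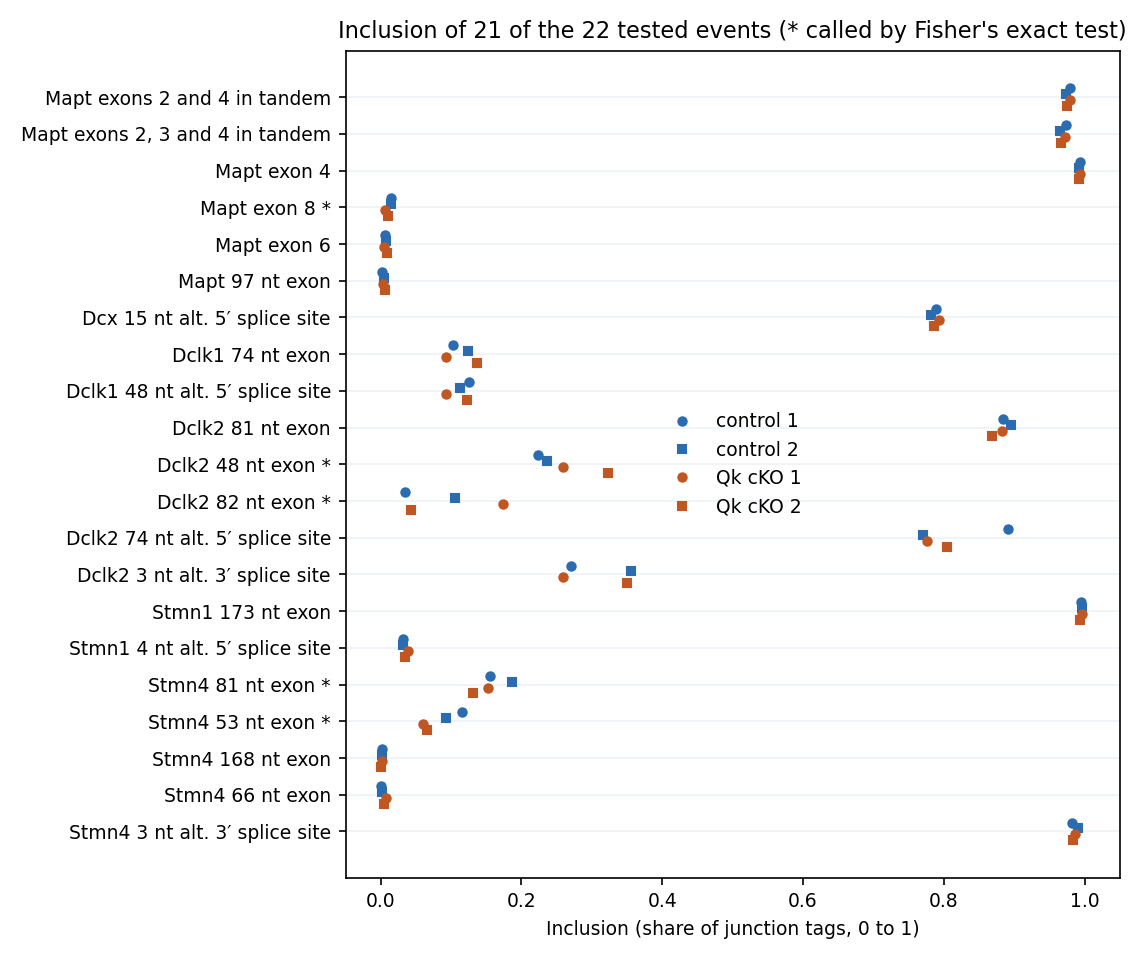
Inclusion, from 0 to 1, of 21 of the 22 tested events in each of the 4 libraries, with colours and symbols for group and replicate and an asterisk for the 5 events called by Fisher's exact test. Most rows show the 4 libraries on top of each other near 0 or near 1, and the starred rows of *Stmn4* and *Dclk2* differ by at most 0.0616 between groups.

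The *Stmn4* exon of 53 bases, which holds the alternative end of the protein, gave the smallest p of the 22. Its inclusion was 0.115 and 0.0934 in control and 0.0600 and 0.0651 in *Qk* cKO, both *Qk* cKO embryos lying below both controls. The Wilson 95% intervals, which cover counting error only, were 0.0958 to 0.137 and 0.0755 to 0.115 in control and 0.0468 to 0.0768 and 0.0509 to 0.0831 in *Qk* cKO, on 839 to 973 junction tags after that averaging. Summed over replicates, inclusion fell from 0.105 to 0.0625, a Δ*I* of 0.0421 (p = 8.48e-06 and FDR 0.000424, Fisher's exact test). The call held without each library in turn and with junction tags alone, and the edgeR interaction test gave FDR 0.247.

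The 81-base exon of *Stmn4*, which adds 27 codons further upstream, was included at 0.156 and 0.186 in control and at 0.153 and 0.131 in *Qk* cKO. Control replicate 1 and *Qk* cKO replicate 1 lay close together, so the groups were separated by little. The Δ*I* was 0.0270 (p = 0.00167 and FDR 0.0316, Fisher's exact test), and the edgeR interaction test gave FDR 0.636. Without control replicate 2 the Δ*I* was 0.0130 and the FDR 0.343, without *Qk* cKO replicate 2 they were 0.0173 and 0.539, and without control replicate 1 the Δ*I* was 0.0432. On junction tags alone the exon was not called (FDR 0.203). A 66-base exon near the start of the gene was rare, with inclusion of 0.000821 and 0.00167 in control and 0.00730 and 0.00488 in *Qk* cKO, which was not called (p = 0.0483, FDR 0.271 by Fisher's exact test). It rested on 3 and 5 isoform tags in control and on 11 and 7 in *Qk* cKO. On junction tags alone it was called (p = 0.00378 and FDR 0.0742, Fisher's exact test).

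In *Dclk2*, the doublecortin-like kinase, the 48-base exon was included more in *Qk* cKO. Its inclusion was 0.223 and 0.237 in control and 0.259 and 0.324 in *Qk* cKO, with *Qk* cKO replicate 2 the highest. The Δ*I* was -0.0616 (p = 0.00324 and FDR 0.0481, Fisher's exact test) and the edgeR interaction test gave FDR 0.662. Without *Qk* cKO replicate 2 the Δ*I* was -0.0298 and the FDR 0.774, and without control replicate 1 the FDR was 0.315. The 82-base exon of *Dclk2*, at chr3:86789409-86789490, was called as well (FDR 0.0485), but its inclusion was 0.0352 and 0.105 in control and 0.174 and 0.0435 in *Qk* cKO, so the groups overlapped. It is annotated in 1 transcript of the gene, which does not code through the whole of it. Its junctions were read by 3 to 16 tags per library, while 200 to 223 tags were assigned to the isoform that includes it, and on junction tags alone Fisher's exact test gave p = 0.124 and FDR 0.529. Without control replicate 1 the Δ*I* was -0.0128 (FDR 0.937), and without *Qk* cKO replicate 2 it was -0.113 (FDR 0.173). The sequence of this exon is not shown for that reason. The 81-base exon of *Dclk2* was mostly included, at 0.884 and 0.896 in control and 0.882 and 0.869 in *Qk* cKO, and did not pass the test (FDR 0.598). A 3-base shift of an acceptor site differed more between replicate numbers than between genotypes, at 0.270 and 0.355 in control and 0.259 and 0.351 in *Qk* cKO.

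Exon 2 of tau, whose 87 bases code for the first acidic insert, was rarely read in any library. Joined directly to exon 4, it had no whole tag in 3 libraries, which allows an inclusion of this form of up to 0.172%, and 3.01 tags in *Qk* cKO replicate 2 gave 0.000869. The event of exons 2 and 3 together was read by 6 and 3 tags in control and 2 and 8 in *Qk* cKO on its 3 inclusion junctions, with an inclusion of 0.00104 and 0.000572 in control and 0.000366 and 0.00154 in *Qk* cKO, below the coverage for a test. The upper ends of the Wilson 95% intervals lay between 0.00278 and 0.0048. The listed event of exon 3 on its own starts from exon 2, so it covers only transcripts that hold exon 2. Its inclusion junctions were read by 6 and 3 tags in control and 2 and 6 in *Qk* cKO, too few to measure inclusion. Exon 4 of 66 bases was constitutive in practice, at 0.994 and 0.992 in control and 0.993 and 0.992 in *Qk* cKO. Both tested tandem events of *Mapt* contain exon 4 and share its junctions, and their Δ*I* values were 0.000125 and 0.000184.

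*Mapt* exon 8, of 54 bases, was called by Fisher's exact test at a very low level. Its inclusion was 0.0141 and 0.0142 in control and 0.00565 and 0.00991 in *Qk* cKO, both *Qk* cKO embryos lying below both controls. It was read by 22.15 and 22.03 junction tags in control and 8.11 and 17.1 in *Qk* cKO, against 713 to 855 tags that skip it. The Δ*I* was 0.00617 (p = 0.000664 and FDR 0.0161, Fisher's exact test), the edgeR interaction test gave FDR 0.354, and with junction tags alone Fisher's exact test gave FDR 0.536. The call was also lost without control replicate 1 (FDR 0.140) and without *Qk* cKO replicate 1 (FDR 0.260). Exon 6 of 198 bases, the other rare exon of tau, had 0.00671 and 0.00692 in control and 0.00492 and 0.00946 in *Qk* cKO (FDR 0.988).

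**Figure D4:**
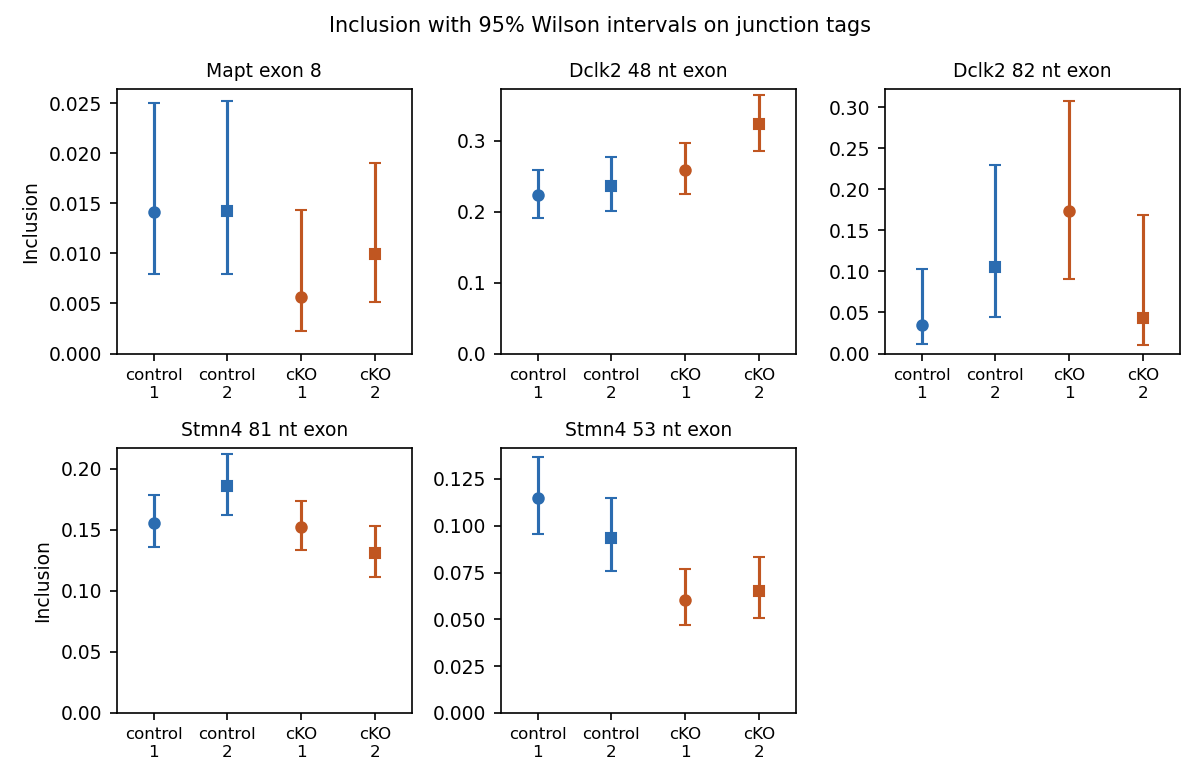
Inclusion per library, on an axis from 0 that differs between panels, with Wilson 95% intervals from junction tags, for the 5 events called by Fisher's exact test. The 2 *Qk* cKO points of the *Stmn4* 53-base exon lie at 0.0600 and 0.0651 under control points of 0.0934 and 0.115, while 1 of those of the *Dclk2* 82-base exon, at 0.0435, lies between the controls.

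No event of *Dcx*, *Dclk1* or *Stmn1* was called. The longer form of the *Dcx* exon that ends with the 15 bases shown above made up 0.789 and 0.782 in control and 0.793 and 0.786 in *Qk* cKO, on 896 to 1132 junction tags, with a Δ*I* of -0.0033 (p = 0.763 and FDR 1, Fisher's exact test). In *Dclk1*, a 48-base donor extension had 0.125 and 0.112 in control and 0.0923 and 0.123 in *Qk* cKO (FDR 0.711). The 74-base exon of *Dclk1*, which shifts the reading frame near the 3′ end of the coding sequence, had 0.103 and 0.124 in control and 0.0926 and 0.137 in *Qk* cKO (FDR 0.998). In both events the values of the groups overlapped. In *Stmn1*, the 173-base coding exon was included at 0.994 to 0.996 in all libraries. A 4-base donor shift upstream of it had 0.0314 and 0.0315 in control and 0.0392 and 0.0340 in *Qk* cKO (FDR 0.787).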

How the data were processed

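mRNA-SEQ of 2 control and 2 *Qk* cKO cortices (E14.5, mm10) was used, with groups and replicate numbers from the sample titles. The authors aligned the reads with OLego and deposited, from Quantas, an estimated count of tags for each gene, its RPKM, and estimated counts of isoform and junction tags for each event; between 8.41% and 12.2% of genes per library had a count that was not whole. Multi-mapped or overlapping sequence is settled by that step. Here, tags were rounded and tested with the edgeR 4.0.16 quasi-likelihood test (R 4.3.3, TMM, all 18834 genes with a tag, Benjamini-Hochberg). Events were tested with Fisher's exact test on summed isoform tags, two-sided, adjusted within each event type, at a coverage of at least 20. DESeq2 1.42.0, an edgeR interaction test, a Cochran-Mantel-Haenszel test and leaving out each library were alternatives. Wilson intervals (95%) and limits for a count of 0 (3 tags) cover counting error only. On simulated data the level test recovered 184 of 200 changed genes among 18834 with 21 false calls. It recovered 34 of 50 at a log2 fold change of 0.6, the smallest simulated. Those genes were simulated with the same spread for all, and only genes with a mean of at least 50 tags were changed. Recovery of changes as small as those of the 8 genes was not measured. Fisher's exact test recovered 195 of 200 changed events among 11500 with 18 false calls. Those events were simulated without variation between embryos, and only well covered ones were changed. The recovery therefore does not show how Fisher's exact test behaves when embryos vary.

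Of the genes, all 8 are named. Of the events, those called, tau exons 2 and 3, and each gene's best covered and lowest p are named, except that 1 tested tau event is not reported here. Further ones were chosen after their values were seen. Of other lists, up to 3 genes with the lowest p are named. The members, lists and tests were chosen with earlier results of these data known. The labels give 2 replicates a group, and the embryos were littermates. The edgeR and DESeq2 p-values therefore rest on the spread between these embryos only, and those of Fisher's exact test leave that spread out. Marker lists without a call were intermediate progenitors, interneurons, oligodendrocyte lineage, microglia, blood vessels, meninges, red blood cells and embryo sex (medians between -0.086 and 0.28). Summed meningeal markers were highest in *Qk* cKO replicate 2, at 157 RPKM against 116 to 127 RPKM.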

Additional observations from a re-analysis of the deposited data

How the results depend on the processing

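The 8 genes gave 0 calls under DESeq2 size factors, upper-quartile scaling, edgeR's exact test, the DESeq2 Wald test, filterByExpr and no filter, and between 0 and 1 when a library was left out, the call being *Stmn3* without *Qk* cKO replicate 1. A lone library is then assumed to vary like the other group. The log2 fold change without 1 library ran from -0.099 to 0.040 for *Stmn2* and from -0.21 to 0.028 for *Stmn4*. The pathway lists gave 0 calls, and 0 to 3 without 1 library. The marker lists gave 9 calls, 2 by the DESeq2 Wald test, 2 with filterByExpr and 0 to 17 without 1 library. Over all genes calls ranged from 11 with filterByExpr and 57 by the exact test to 192 with the block, and from 0 to 428 without 1 library.

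The members gave 5 event calls, and on junction tags alone 3, which were the *Stmn4* 53-base and *Dclk2* 48-base exons of those 5 and the *Stmn4* 66-base exon. There were 0 by the edgeR interaction test, 0 with a Δ*I* of at least 0.1, and 2 to 4 without 1 library. Over all events 862 were called, 503 on junction tags alone and 64 by the interaction test. In fits that kept a coverage of at least 20, the Δ*I* changed sign without a library in 11 events, none of them called. Among them was the 74-base site of *Dclk2* with a Δ*I* of 0.0566. It ran from -0.000773 to 0.00115 for *Mapt* exon 4, -0.0026 to 0.0019 for exon 6, -0.0032 to 0.0031 and -0.0042 to 0.0042 for the tandem events, -0.0232 to 0.0209 for the *Dclk1* 74-base exon, -0.0037 to 0.0267 for its 48-base site, -0.0011 to 0.0015 for the *Stmn1* 173-base exon, -0.0068 to 0.000195 for *Dcx*, -0.0181 to 0.102 and -0.0451 to 0.0564 for the 74-base and 3-base sites of *Dclk2*, and -0.0022 to 0.0063 for the *Stmn4* 3-base site. The called 82-base exon of *Dclk2* kept that coverage in 3 fits only and was not tested without *Qk* cKO replicate 1. There the summed control inclusion was 0.0607 and that of *Qk* cKO replicate 2 was 0.0435, the opposite direction. A 168-base exon of *Stmn4*, not called, fell below the coverage in every such fit. Averaging replicates gave -1.72e-05 and -7.39e-06 for the tandem events. The causes were not tested.

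Same-numbered libraries correlated at 0.603 over all genes but -0.061 over autosomal genes, and at 0.0106 over events, so the numbers share sex-linked genes and were not taken as pairs. With the replicate block 0 of 8 genes and 5 of 22 events were called (*Dcx* FDR 0.242), and 192 genes and 740 events in all.

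Depth limits the rare forms most: exons 2 and 3 of *Mapt* and the 82-base exon of *Dclk2* rest on few junction tags.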
